A study of Mus musculus with 6 samples.

Results

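The machinery of V(D)J recombination was followed in T-cell acute lymphoblastic leukaemia (T-ALL) of the mouse with and without Phf6. It was represented by 10 genes, chosen by their symbols among the 23306 genes of the deposited table: Rag1, Rag2, Dntt, Prkdc, Lig4, Xrcc4, Xrcc5, Xrcc6, Dclre1c and Nhej1. PolyA RNA was sequenced from isogenic T-ALL tumours of the C57BL/6 strain that were harvested from bone marrow, 3 samples labelled Phf6 WT (wild type; libraries WT1, WT2 and WT3) and 3 labelled Phf6 KO (knockout; KO1, KO2 and KO3). Phf6 encodes a nuclear PHD finger protein, and its deletion was induced by injecting tamoxifen, which activates Cre recombinase. The vehicle was corn oil. The labels do not say which sample received which injection, so drug exposure and loss of the gene cannot be told apart. The labels do not name the oncogene, the promoter of the Cre or the number of animals, so the p-values measure only the spread between these samples, which may be technical.

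V(D)J recombination assembles the antigen receptor genes of developing lymphocytes from separate segments. The RAG1 and RAG2 proteins together form the endonuclease that cuts beside the segments, and terminal deoxynucleotidyl transferase (TdT, the product of Dntt) adds bases to the cut ends without a template. The classical end-joining pathway then seals the break. Ku70 and Ku80 (Xrcc6 and Xrcc5) bind the ends, the kinase DNA-PKcs (Prkdc) and the nuclease Artemis (Dclre1c) open and trim the hairpins, and ligase IV (Lig4), XRCC4 and XLF (Nhej1) ligate them. In the thymus the Rag genes and Dntt mark immature stages, whereas the end-joining genes are active in most cell types.

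Between 46067511 and 54953145 reads were assigned to genes per library. Values are given as normalised read counts, the authors' reads divided by a size factor for each library. The deleted gene was measured first. Phf6 had 5508, 4240 and 5075 normalised reads in WT1, WT2 and WT3 and 1781, 2337 and 1755 in KO1, KO2 and KO3 (limma, adjusted p = 0.00184), lower in each knockout library. Genes of the T lineage were abundant in all libraries, and markers of granulocytes differed in level between the groups. Fold changes were tested with limma across 17993 genes, with log2(value + 2) as the scale, Benjamini-Hochberg adjustment over all of them and a threshold of 0.05.

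Of the 10 genes 9 had enough reads to be tested, and Rag2 had not. Dntt fell in the knockout, no gene rose, and 8 did not pass; at an unadjusted p under 0.05 there were 3 (Dntt, Rag1 and Xrcc6), all lower in the knockout. Of all genes tested, 8.75% were called, 5.32% as higher and 3.43% as lower in the knockout, so 1 call among 9 is near the background. edgeR called Dntt alone (2.55% of all genes called lower) and DESeq2 called Dntt and Rag1 (5.02%). The median log2 fold change of the 9 genes was -0.12, against -0.01 over all genes tested. All 3 knockout values lay below all 3 wild-type values for Rag1 and Dntt, an order seen for 16.2% of all genes tested.

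**Figure D1:**
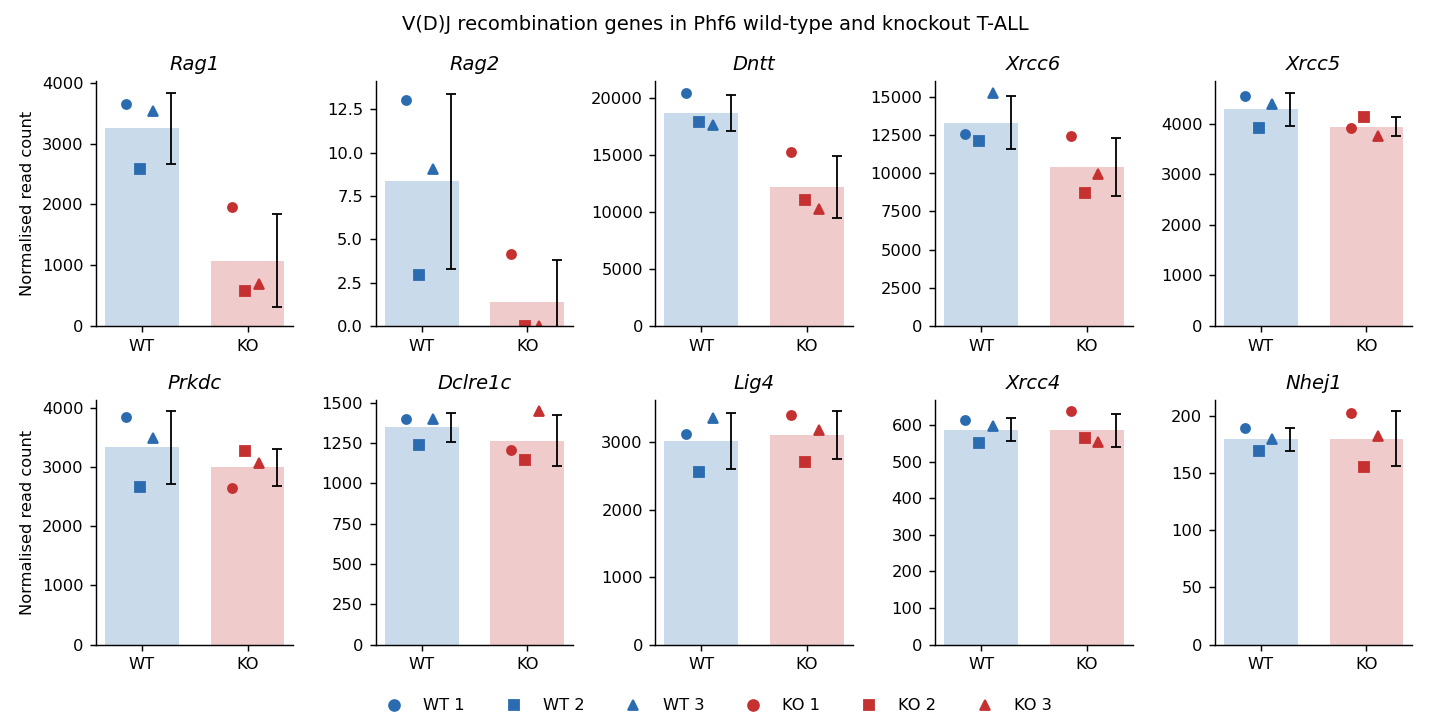
Normalised read counts (linear axes from 0) of the 10 genes. Points are libraries, bars are means of each group and black lines are the SD (n = 3 per group), cut at 0 for Rag2. Here the groups are separate for Rag1 and Dntt, with KO1 nearest to the wild type in both, and they overlap for the other 8 genes.

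Rag1, the catalytic subunit of the recombinase, had the largest difference of the 9 tested genes and also the widest spread among knockout libraries. It had 3647, 2583 and 3536 normalised reads in WT1, WT2 and WT3 and 1958, 572 and 693 in KO1, KO2 and KO3. KO1 lay between the other knockouts and the lowest wild type, and the groups did not overlap. The means were 3256 ± 585 and 1074 ± 768 (SD, n = 3 each), and the coefficient of variation in knockout was 71.4%. The log2 fold change was -1.81 ± 0.53 (SE), which did not pass (limma, adjusted p = 0.119). It was as low or lower in 27 of all genes tested (0.15%). edgeR gave -1.58 with an adjusted p of 0.0550, and DESeq2, with an adjusted p of 0.0453, called it. Without KO1 the log2 fold change was -2.35 and passed (limma, adjusted p = 0.00304; 1.96% of genes were called lower in that fit). Over the other libraries left out it lay between -1.96 and -1.46 and did not pass.

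Rag2, whose protein is the required partner of RAG1 and carries a PHD finger that binds methylated histone H3, was close to absent. It had 13, 3 and 10 reads in WT1, WT2 and WT3 and 4, 0 and 0 reads in KO1, KO2 and KO3. The single library with a normalised value of at least 10 was WT1, so the gene did not enter the test. In the limma fit with no filter on low values it did not pass (adjusted p = 0.106). A count of 0 allows up to 3 reads in a library. Summed over each group and scaled to the total reads, the knockout to wild-type ratio was 0.174 with a 95% interval of 0.0442 to 0.502 (exact binomial), which covers counting error only and compares these libraries. KO1 was again the highest of its group. Per kb of exon, Rag1 had 203 times the reads of Rag2 over the pooled wild-type libraries.

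Both genes lie next to each other on chromosome 2 of GRCm38. Rag1 (ENSMUSG00000061311, protein coding) occupies 101638282 to 101649501 on the minus strand and Rag2 (ENSMUSG00000032864, protein coding) 101624718 to 101632529 on the plus strand, so that they converge. B230118H07Rik, also known as Iftap, spans both on the minus strand and starts 0.031 kb before the start of Rag1. It shares 80 exon bases with Rag1 on the same strand (1.21% of the Rag1 exons) and 208 with Rag2 on the opposite strand (6.07% of the Rag2 exons). No label states the strand setting of the counting, which leaves reads in the shared bases uncertain, while 93.9% of the Rag2 exon bases are not shared.

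The neighbours of the Rag genes did not pass the test. Within 500 kb of the start of Rag1, 8 genes were in the table and 5 were tested, Rag1 included; none was called by limma or edgeR, 2 (Rag1 and B230118H07Rik) had an unadjusted p under 0.05, and DESeq2 called Rag1. B230118H07Rik had 184, 226 and 232 normalised reads in WT1, WT2 and WT3 and 202, 133 and 90 in KO1, KO2 and KO3, so the groups overlapped through KO1 (-0.66 ± 0.27 as log2 fold change with its SE; limma, adjusted p = 0.165). Traf6, which encodes a ubiquitin ligase of receptor signalling and starts 28.9 kb from Rag1, had a log2 fold change of 0.19, Commd9 of 0.07 and the antisense gene Gm13919 of 0.16. For each library the normalised reads of Rag1 were also divided by those of B230118H07Rik, whose start is nearly shared. This ratio was 19.8, 11.4 and 15.2 in WT1, WT2 and WT3 and 9.68, 4.30 and 7.68 in KO1, KO2 and KO3 (exact permutation test, two-sided, p = 0.1, which is the least that this design can give).

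The 250 bases before the RefSeq starts of Rag1, Rag2 and Dntt are shown, on GRCm38.p6, because Rag1 and Rag2 differ so widely in level while Rag1 and Dntt were both lower in the knockout. Each is printed 5′ to 3′ on the strand of its gene, and capitals mark matches, on either strand, to the E-box CANNTG, the RUNX motif TGTGGT, the ETS motif AGGAAG and the FOXO motif GTAAACA. The Rag1 stretch is chr2:101649533-101649782 (minus strand), the Rag2 stretch chr2:101624462-101624711 (plus strand) and the Dntt stretch chr19:41029025-41029274 (plus strand). The RefSeq start lies 31 bases before the GENCODE start given above for Rag1, at the start of B230118H07Rik, and 6 bases before it for Rag2, so those bases are not shown. Both starts are the same for Dntt.
Rag1: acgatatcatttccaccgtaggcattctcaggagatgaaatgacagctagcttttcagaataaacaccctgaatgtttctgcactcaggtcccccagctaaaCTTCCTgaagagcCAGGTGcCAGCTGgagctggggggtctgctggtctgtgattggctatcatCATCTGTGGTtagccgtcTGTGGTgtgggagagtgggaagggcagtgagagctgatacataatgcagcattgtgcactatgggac
Rag2: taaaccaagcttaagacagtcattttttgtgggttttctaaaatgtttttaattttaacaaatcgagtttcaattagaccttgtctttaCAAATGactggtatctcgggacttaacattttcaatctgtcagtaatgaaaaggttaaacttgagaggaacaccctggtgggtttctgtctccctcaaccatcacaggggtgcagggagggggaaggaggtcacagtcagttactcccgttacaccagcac
Dntt: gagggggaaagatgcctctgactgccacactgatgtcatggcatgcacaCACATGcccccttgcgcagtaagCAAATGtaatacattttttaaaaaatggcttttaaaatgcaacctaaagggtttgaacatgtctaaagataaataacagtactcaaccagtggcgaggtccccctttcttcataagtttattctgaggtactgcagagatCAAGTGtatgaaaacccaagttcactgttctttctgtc
The Rag1 stretch held 3 E-boxes, 2 RUNX matches and 1 ETS match. Its E-box nearest to the start overlaps a RUNX match in the run catCATCTGTGGTtag. The Rag2 stretch held 1 E-box and the Dntt stretch 3, with no match to the other motifs in either, and no FOXO match was found in these windows. Over all 250-base stretches of the RefSeq promoter table, 66.2% held an E-box, 14.05% the RUNX letters, 29.5% the ETS letters and 3.17% the FOXO letters. A match describes letters and does not show that a factor binds.

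Dntt fell, and it was the most abundant of the 10 transcripts per exon length. Dntt (ENSMUSG00000025014, protein coding, chromosome 19, 41029275 to 41059525, plus strand) had 20446, 17921 and 17649 normalised reads in WT1, WT2 and WT3 and 15234, 11048 and 10244 in KO1, KO2 and KO3. The groups did not overlap, and KO1 was again the highest of its group. The means were 18672 ± 1542 and 12175 ± 2679 (SD, n = 3 each), so that the knockout mean was 65.2% of the wild-type mean. The log2 fold change was -0.64 ± 0.14 (SE; limma, adjusted p = 0.0285), and 2.34% of all genes tested had one as low or lower. The call was lost without WT1 (limma, adjusted p = 0.126), WT3 (0.0627), KO2 (0.0758) or KO3 (0.120). The log2 fold change then lay between -0.67 and -0.52, and it was -0.81 without KO1.

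Rag1 was low relative to Dntt in the knockout libraries. For every 100 normalised reads of Dntt, Rag1 had 17.8, 14.4 and 20.04 in WT1, WT2 and WT3 and 12.9, 5.18 and 6.77 in KO1, KO2 and KO3 (two-sided exact permutation p = 0.1). Because markers of other cells moved with the groups, both genes were also set against the summed T-lineage markers, which encode parts of the T cell receptor complex, kinases, surface proteins and transcription factors. The most abundant of them was Tcf7, which itself fell. Dntt had 50.4, 46.6 and 44.5 CPM (reads scaled to library depth) per 1000 CPM of these markers in WT1, WT2 and WT3 and 43.5, 34.9 and 32.0 in KO1, KO2 and KO3. For Rag1 the values were 8.99, 6.72 and 8.93 in WT1, WT2 and WT3 and 5.59, 1.81 and 2.16 in KO1, KO2 and KO3. On this scale too the groups did not overlap for either gene (exact permutation p = 0.1 for each, the least that this design can give). In normalised reads 16.2% of all genes tested were separate and lower in the knockout, and the share on this scale was not determined. Xrcc6, set against the same markers, had 31.0, 31.5 and 38.6 in WT1, WT2 and WT3 and 35.6, 27.6 and 31.1 in KO1, KO2 and KO3, so its groups overlapped (exact permutation p = 0.6). In bulk samples, fewer cells that express a gene and less RNA per cell cannot be told apart.

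Of the Ku heterodimer, Xrcc6 had the larger difference. Xrcc6 (Ku70; ENSMUSG00000022471, chromosome 15, 81987835 to 82040085, plus strand) had 12567, 12094 and 15279 normalised reads in WT1, WT2 and WT3 and 12473, 8732 and 9983 in KO1, KO2 and KO3. KO1 lay within the wild-type range and the other knockout libraries below it. The log2 fold change was -0.36 ± 0.14 (SE), which did not pass (limma, adjusted p = 0.140). A value as low or lower was found for 9.44% of all genes tested. Xrcc6 shares 344 exon bases (7.69%) with Desi1 on the opposite strand. Xrcc5 (Ku80) had 4543, 3918 and 4400 normalised reads in wild type and 3919, 4141 and 3760 in knockout, a log2 fold change of -0.12 ± 0.09 (SE). Although both subunits act as a pair, reads per kb of Xrcc6 for each of Xrcc5 ranged from 1.58 to 1.98 in wild type and from 1.20 to 1.82 in knockout (exact permutation p = 0.3).

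The kinase and nuclease genes overlapped between the groups. Prkdc had 3850, 2657 and 3497 normalised reads in WT1, WT2 and WT3 and 2652, 3266 and 3070 in KO1, KO2 and KO3, with the lowest value of each group nearly equal (log2 fold change -0.14 ± 0.14 SE). KO1, the highest knockout for Rag1 and Dntt, was the lowest for Prkdc. Dclre1c, for Artemis, had 1396, 1239 and 1401 in wild type and 1205, 1142 and 1446 in knockout (-0.09 ± 0.11). The highest and the lowest of its 6 values were both knockouts. Dclre1c shares 357 exon bases (3.83%) with Suv39h2 on the opposite strand.

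The genes of the ligase complex had the smallest differences. Lig4 had 3119, 2557 and 3363 normalised reads in WT1, WT2 and WT3 and 3410, 2712 and 3188 in KO1, KO2 and KO3 (log2 fold change 0.05 ± 0.12 SE). Xrcc4, the scaffold that stabilises ligase IV, had 615, 552 and 598 in wild type and 638, 565 and 554 in knockout (-0.01 ± 0.12). Nhej1, for XLF, was the scarcest of the end-joining genes in reads, with 189, 169 and 180 in wild type and 202, 155 and 183 in knockout (0.00 ± 0.17, adjusted p = 0.995 in limma). The knockout means of Xrcc4 and Nhej1 were 99.6% and 100.3% of the wild-type means, and the sign of their log2 fold changes differed between scalings. Of the 7 end-joining genes, 6 (all but Xrcc6) had a log2 fold change within 0.15 of 0, as had 38.3% of all genes tested. A p above the threshold does not show that levels were equal. Changes well above their SE could be missed, since Xrcc6 (-0.36 ± 0.14 SE) and Rag1 (-1.81 ± 0.53 SE) did not pass.

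**Figure D2:**
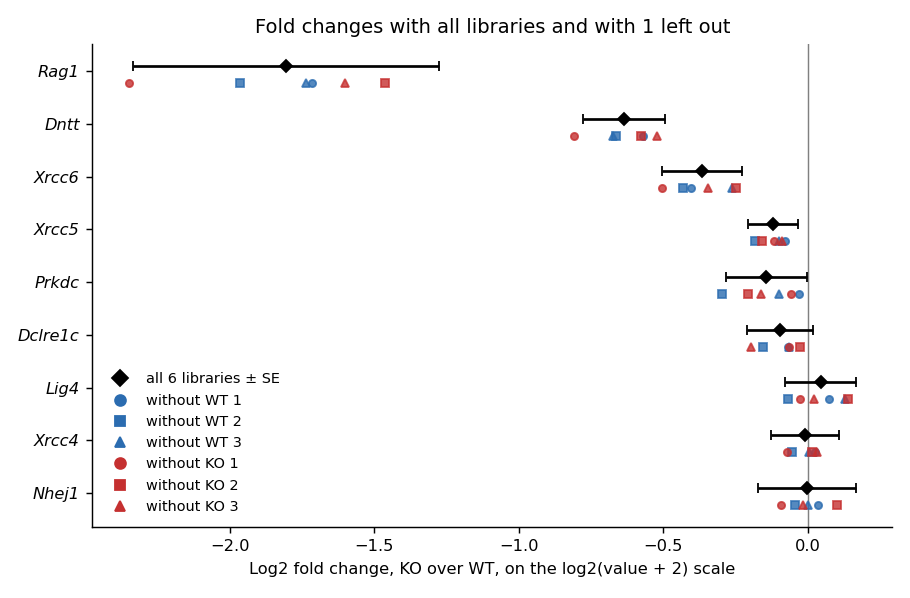
Fold changes of KO against WT for the 9 tested genes, as log2 on the log2(value + 2) scale, with black diamonds and SE bars for all 6 libraries and coloured points for fits that leave out the library named. Rag1 ranges from -2.35 without KO1 to -1.46 without KO2, and the ligase complex genes stay near 0.

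The order of mean transcript levels differed between the groups at 2 places. Levels were compared as RPKM, reads scaled to exon length and library depth. In wild type they were 165 ± 13 for Dntt, 60.3 ± 8.0 for Xrcc6 and 34.0 ± 2.6 for Xrcc5 (SD, n = 3 each). Lig4 and Rag1 followed at 11.7 ± 1.6 and 9.99 ± 1.8, closer to each other than the SD of Rag1 but not that of Lig4. Prkdc was at 5.13 ± 0.94, and Nhej1, Dclre1c and Xrcc4 at 3.25 ± 0.18, 2.93 ± 0.20 and 2.83 ± 0.16, the last pair within their spread. Rag2 was at 0.0494 ± 0.0299. In knockout Dntt was at 108 ± 24, Xrcc6 at 47.2 ± 8.8 and Xrcc5 at 31.3 ± 1.4. Rag1 was at 3.30 ± 2.37 and changed places with Prkdc (4.61 ± 0.47), again within its spread, since KO1 was at 6.03 and the other knockouts at 1.75 and 2.13. Xrcc4 (2.82 ± 0.23) and Dclre1c (2.76 ± 0.36) also changed places.

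**Figure D3:**
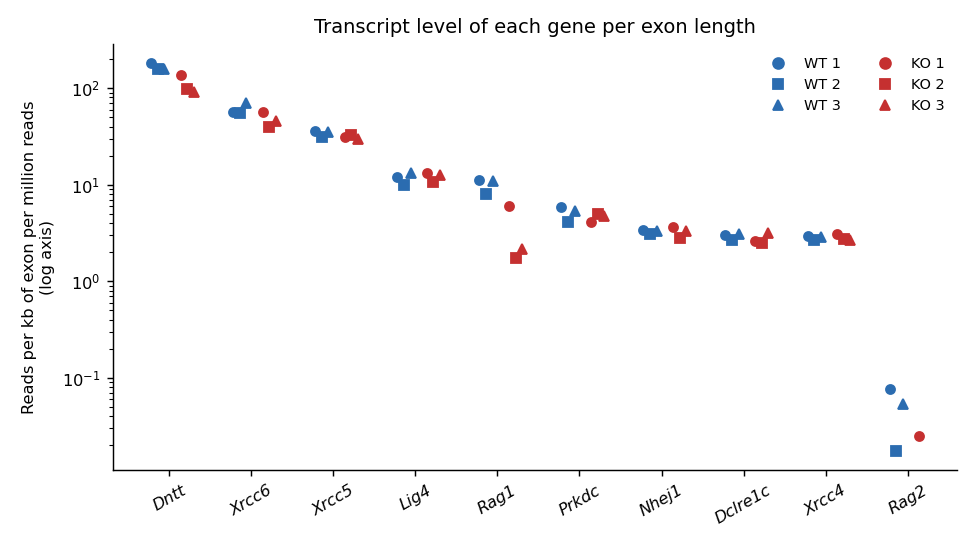
RPKM, reads scaled to kb of exon and to library depth (log axis), of the 10 genes in each library, ordered by wild-type mean, with wild-type libraries in blue and knockout libraries in red. Levels run from Dntt, between 90.9 and 180, to Rag2, whose 2 knockout libraries with 0 reads are not drawn.

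Among listed cofactors of RAG and regulators of the Rag genes, 3 of 23 tested genes fell and 1 rose. Over all genes tested, 3.43% were called lower and 5.32% higher. The log2 fold changes of the 23 genes had a median of -0.09. Runx1, a transcription factor of T-cell development, fell by 0.55 ± 0.12 (SE) on the log2 scale (limma, adjusted p = 0.0213), from a mean of 11156 ± 757 to one of 7697 ± 1293 normalised reads (SD, n = 3 each). Ets1 fell by 0.44 and Foxo3 by 0.40 on the log2 scale. Zfp608, a zinc finger protein known to repress the Rag genes in thymocytes, rose from 3, 4 and 4 reads in WT1, WT2 and WT3 to 17, 35 and 26 reads in KO1, KO2 and KO3 (2.33 ± 0.37; limma, adjusted p = 0.00682). It stayed scarce in every library, and a link to the level of Rag1 was not tested. Zfp608 met the filter on low values through its knockout libraries alone. It was also called with no filter (limma, adjusted p = 0.00414), but was not tested at 1 CPM or more or without any 1 of the knockout libraries. Neither Hmgb1 (-0.17) nor Hmgb2 (-0.13), which bend DNA for the RAG complex, passed, nor did Foxo1 (-0.04) or Tcf3 (-0.19), which encode activators of the Rag genes. Without WT1, WT2, WT3, KO1, KO2 or KO3 the falls numbered 0, 4, 1, 1, 1 and 0. Over all genes tested in those fits 88, 783, 169, 344, 338 and 57 fell, against 618 with all libraries.

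Some other factors of end joining and of break repair were called in limma, all as lower in the knockout. Over all genes tested, 3.43% were called lower. Of 14 other end-joining factors 2 fell, the accessory scaffold Aplf (-0.54 ± 0.12 SE; limma, adjusted p = 0.0268) and the end-cleaning phosphodiesterase Tdp1 (-0.45), none rose, and the median was -0.16. The DNA polymerases nearest to TdT in kind did not pass in limma: Poll had log2 fold change -0.36 and Polm 0.15. DESeq2 called Poll (adjusted p = 0.0481), and in DESeq2 4 of the 14 factors fell. Of all genes tested, DESeq2 called 5.02% as lower. Of 8 genes of alternative end joining 2 fell, the break sensor Parp1 with means of 16782 ± 1753 and 11928 ± 1317 normalised reads (SD, n = 3 each; limma, -0.49 ± 0.11 on the log2 scale with its SE, adjusted p = 0.0233) and the abasic endonuclease Apex1 (-0.37), and their median was -0.31. H2afx, for the histone that is phosphorylated around breaks, fell (-0.41; limma, adjusted p = 0.0497) as 1 of 15 sensing and end-protection genes, and kept its call under 6 of 16 alternatives; in edgeR the adjusted p was 0.0729. Shld2, an end-protection gene of the same list, did not pass in limma (0.33; adjusted p = 0.0570) but was called in edgeR (0.0425) and DESeq2 (0.0145). None of 20 homologous recombination genes was called by limma (4 at an unadjusted p under 0.05) or edgeR, and 1 by DESeq2. The smallest p-values there were those of Rbbp8 (-0.31; limma, adjusted p = 0.0546) and Blm (0.24). No gene of these 4 lists was called without WT1, WT3 or KO3. Without KO2, 0 of the other end-joining factors and 1 alternative end-joining gene fell, and without KO1 that list again had 1. Without WT2 the falls were 3 other end-joining factors, 2 alternative end-joining genes, 4 sensing and end-protection genes and 1 homologous recombination gene. Over all genes tested 783 fell in that fit.

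Markers of the cells in the samples moved with these differences. The shares to set beside their counts are 3.43% of all genes tested called lower and 5.32% called higher. Of 17 T-lineage markers 4 fell (Cd247 -0.57, Cd5 -0.48, Cd6 -0.47 and Tcf7 -0.49) and none rose, and their sum was between 7787 and 8209 CPM in wild type and between 6400 and 7124 CPM in knockout. All 18 granulocyte markers had positive log2 fold changes and 9 rose, Csf3r (1.71), Cxcr2 (1.76), Fcnb (2.28) and Ms4a3 (2.96) among them. Their sum was between 130 and 488 CPM in wild type and between 1037 and 1373 CPM in knockout. Of 13 B-lineage markers 8 rose, with Pax5 at 2.71, Blk at 2.48 and Blnk at 1.51, and 1 fell, Pou2af1 (-0.82). The 4 others did not pass: Cd79a (1.07), Cd72 (0.39), Igll1 (0.06) and Vpreb3 (-0.35). Of the 8 that rose, 5 (Pax5 and Blk among them) met the filter on low values only with the knockout libraries, where they are high. With genes at 1 CPM or more 4 were tested and 2 rose, and with no filter 10 of 15 rose. Over all genes tested, 717 and 1032 rose in these fits. The sum of the B-lineage markers was between 25.8 and 35.4 CPM in wild type and between 22.1 and 34.5 CPM in knockout. Its largest part was Pou2af1, which fell, with means of 1265 ± 273 and 703 ± 57 normalised reads (SD, n = 3 each). The overlap of the sums therefore does not show how the other B-lineage markers moved. Ms4a1 and Ebf1 had 0 reads in WT3. With 1 library left out, between 1 and 4 T-lineage markers fell, and between 2 and 18 granulocyte and between 0 and 7 B-lineage markers rose. The 18 came without WT2, where 1156 of all genes tested rose, and the 0 without KO3, where 134 rose. The part of these cells in the differences of Rag1 and Dntt was not tested.

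Genes of double-positive thymocytes, the stage at which Rag genes are high, had no common direction. Of 12 tested genes 2 rose and none fell, against 5.32% and 3.43% of all genes tested (the median of their log2 fold changes was 0.07). Ccr9, a chemokine receptor, rose by 1.42 and Tespa1, which acts in thymocyte selection, by 0.64. Ptcra, which encodes the invariant chain of the pre-T cell receptor, had 992, 1113 and 1390 normalised reads in WT1, WT2 and WT3 and 1395, 425 and 597 in KO1, KO2 and KO3 (-0.70 ± 0.46 SE; limma, adjusted p = 0.419). KO1 was the highest of all libraries for Ptcra, so the groups overlapped. For Rag1 it was the highest knockout but lay below every wild type. Ptcra was picked after its values were seen, and KO1 was not the highest knockout for every gene of the list.

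**Figure D4:**
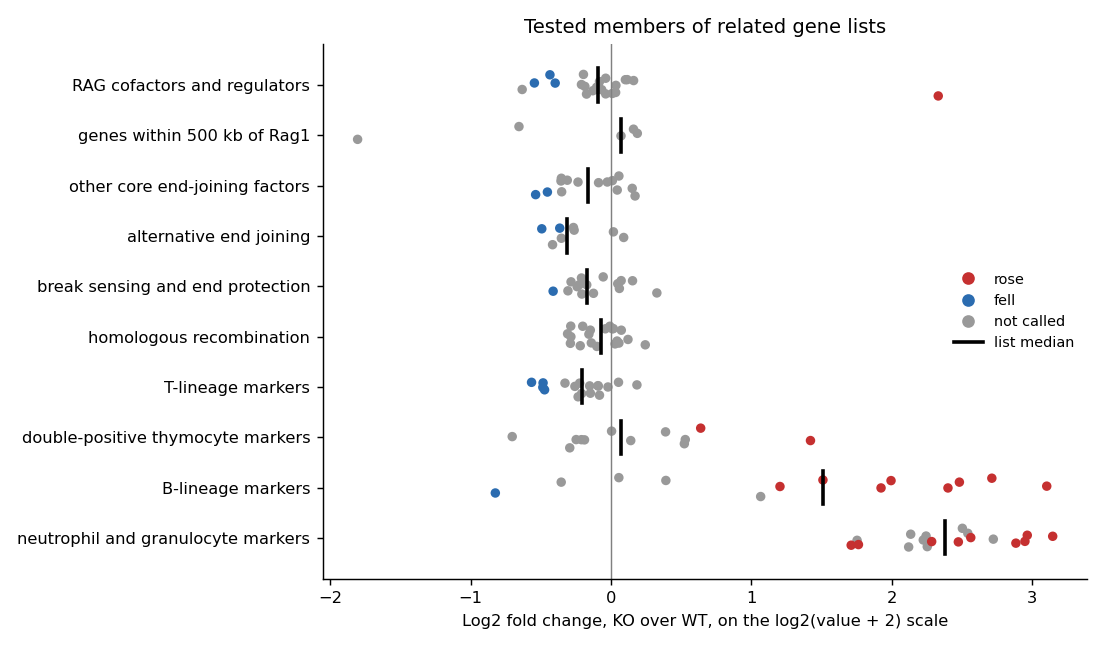
Tested genes of 10 lists by their log2 fold change, KO against WT, on the log2(value + 2) scale. Each point is 1 gene, in red where it rose, in blue where it fell and in grey otherwise, and black bars mark medians. The Rag1 point lies at -1.81 in the second row, Zfp608 at 2.33 in the first, and the repair lists have medians between -0.31 and -0.07.

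The profile of Rag1 over the 6 libraries was nearest to those of Smim10l2a, Col12a1, Bcat1, Pax7 and Tmem132b among 12850 protein-coding genes tested. Likeness was the root mean square difference of log2(value + 2) after centring each gene on its mean, which was between 0.301 and 0.447. Bcat1, an aminotransferase of branched-chain amino acids, had 446, 354 and 477 normalised reads in WT1, WT2 and WT3 and 184, 112 and 128 in KO1, KO2 and KO3. Smim10l2a and Col12a1 were scarce, at most 19.02 and 16.02 normalised reads.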

How the data were processed

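The deposited table gives a signal, the authors' read counts scaled by a size factor for each library. In every library 100% of the values were whole multiples of 1 step within a tolerance of 0.01, and dividing by it gave back whole reads. STAR 2.6.0a, bcl2fastq 1.8.4, featureCounts, DESeq2 and the GRCm38 build are named in the submitters' processing notes. Not given in the sources used here were the annotation, the strand setting and the treatment of multi-mapping reads. Libraries were read as paired ends of 150 bases, per the labels' protocols. Columns were matched to samples by name. Of 23314 rows, 8 without a gene identifier (at most 0.00106% of the reads of a library) were left out.

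limma 3.58.1 (R 4.3.3) was fitted to log2(value + 2) with the trend and robust options and the group as the only term. Genes needed a value of 10 or more in 3 libraries. edgeR 4.0.16 (quasi-likelihood) and DESeq2 1.42.0 on the recovered reads, other scalings, filters and pseudocounts, a replicate block, a threshold of 0.1 and leaving out each library were alternatives. CPM used TMM factors, and exon lengths and positions came from GENCODE M21 (GRCm38). Of the 10 genes 9 had an entry in the RefSeq promoter table. Replicates differed by more than sampling noise (chi-square of 13.1 to 57.5 per degree of freedom).

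The genes and lists were chosen with earlier results of these data known. Named genes were Phf6, the 10 genes, tested neighbours of Rag1, up to 4 called genes of each list by smallest p (2 with the smallest p where none was called) and the 5 nearest to Rag1 in profile. Poll, Polm, Ptcra, Hmgb1, Hmgb2, Foxo1, Tcf3, Ms4a1, Ebf1, Cd79a, Cd72, Igll1, Vpreb3 and Shld2 were chosen after their values were seen. On simulated counts for 17676 genes, 81 of 100 genes changed 2-fold and 28 of 100 changed 1.5-fold were recovered, and 7 of 116 calls (6.03%) were false. The changed genes were drawn from those above 1 CPM on average, with noise drawn independently for each gene. These rates may therefore not hold for the data. Figures used matplotlib 3.10.9.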

Additional observations from a re-analysis of the deposited data

How the results depend on the processing

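Dntt was the single call among the 10 genes under the other scalings, filters and pseudocounts, in edgeR, with the replicate block and at an adjusted p of 0.1. DESeq2 called 2 genes, Dntt and Rag1, and leaving out 1 library gave between 0 and 2. The number of all genes called, 1575, was 2705 at an adjusted p of 0.1, 2568 with the replicate block, and between 191 (KO3 omitted) and 1939 (WT2 omitted) with 1 library left out. With library totals as the scaling 1217 genes rose and 300 fell, against 957 and 618. With the upper quartile these were 993 and 425, and with genes at 1 CPM or more 717 and 608. Whether same-numbered libraries of the groups were paired is not known from their labels. Their deviations from the group means had correlations of 0.01, 0.50 and 0.14. Libraries with unlike numbers had between -0.48 (WT3 and KO2) and 0.38 (WT3 and KO1). The block changed no call among the 10 genes. Of the 18 granulocyte markers 9 rose in limma, 17 in edgeR and 18 in DESeq2. Of all 17993 genes tested, 957, 936 and 1329 rose in these fits.

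Log2 fold changes near 0 changed sign, none past the threshold. Xrcc4 was at 0.076 with library totals, 0.027 with the upper quartile, 0.012 in edgeR and 0.0080 in DESeq2, and Nhej1 at 0.081, 0.032, 0.024 and 0.020. With 1 library left out Lig4 ranged from -0.068 (WT2) to 0.139 (KO2), Xrcc4 from -0.071 (KO1) to 0.031 (KO3) and Nhej1 from -0.091 (KO1) to 0.101 (KO2). The cause was not tested. Rag1, Dntt, Xrcc6, Xrcc5, Prkdc and Dclre1c were negative under all 16 alternatives. Rag2 was tested only with no filter on low values (adjusted p = 0.106).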
